A study of Mus musculus with 12 samples.

Results

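The transcripts described here are 9 genes of the interleukin-1 (IL-1) family and its receptors, taken by symbol from a count table of 24421 genes. They are the agonist cytokines Il1a, Il1b and Il18, the secreted inhibitors Il1rn and Il18bp, the decoy receptor Il1r2, and the receptor chains Il1r1, Il1rap and Il1rl2. All 9 symbols were in the table, and 8 passed the filter on low counts that left 11468 genes for testing. Il1a did not pass and is given by its counts only. The filter asks for 3 libraries at or above 1.09 CPM before TMM scaling. Il1b reached that level in the 6 IC libraries only, Il1r2 in 3 DMSO libraries only and Il1rl2 in 5 DMSO libraries only, so each of these was kept through the groups in which it is high.

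The cells were C57BL/6 macrophages derived from bone marrow (BMDMs). Marrow was cultured for 5 days with 100 ng/mL macrophage colony-stimulating factor (M-CSF), and the medium was replaced on day 3. For 4 hours the cells received either I-BET151 (iBET, a small molecule that blocks the bromodomains of BET proteins) at 5.0 µM or its solvent DMSO, and either ovalbumin (Ova) or an immune complex of ovalbumin and IgG (IC). The 4 groups are called DMSO Ova, DMSO IC, iBET Ova and iBET IC. Each has 3 libraries, 1 from each of mice A, B and C. The labels have drug and stimulus added together, whereas the study's methods put the drug before the stimulus, and which holds is not known. The labels name no engineered allele, and every culture received ovalbumin in some form, so no group was without antigen.

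IL-1α and IL-1β signal through a receptor made of IL1R1 and the accessory chain IL1RAP, which recruits MyD88 and the IRAK kinases and ends in NF-kB and MAP kinase activity. IL1RN occupies IL1R1 without recruiting IL1RAP, and IL1R2 binds IL-1 without signalling. IL1RL2 is the receptor chain for the IL-36 cytokines and also pairs with IL1RAP, while IL18BP neutralises IL-18. In macrophages IL-1β is made as an inactive precursor that inflammasome-activated caspase-1 cuts, so transcript levels do not measure the secreted cytokine.

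Total counts ran from 7.55 to 17.4 M per library (M, mega), and 11 libraries held 1.41% to 7.83% of them on the ribosomal precursor Rn45s. The DMSO Ova library of mouse A held 77.4% on Rn45s and kept 1.77 M counts on other genes, against 7.25 to 16.9 M elsewhere, so a count of 1 in it is worth 0.513 CPM against 0.0533 to 0.120 CPM in the others. CPM, the counts in 1 M counts of a library, is given after TMM scaling, a correction for library composition. All 10 macrophage markers found in the table, among them Adgre1, Csf1r and Cd68, were detected in every library, with a summed level of 6704 to 9488 CPM. Neutrophil markers summed to 28.2 to 65.5 CPM with ranges that overlapped among the groups, over the 11 of 12 listed that were in the table, and 0 of 7 tested were called in any comparison. Of 10 macrophage markers, all tested, Mertk rose with iBET in Ova (log2 fold change 0.77) and IC (1.25) and Lyz2 in IC (0.41), and none was called with IC. The marker lists of dendritic, B, T and NK, mast and erythroid cells stayed at or under 1.55 CPM in every library, with Pax5, Nkg7 and Cpa3 at 0. Among these lists only the dendritic marker Zbtb46 was called, higher with iBET in Ova (log2 fold change 3.38, SE 0.83). Its means were 0.197 ± 0.277 CPM in DMSO Ova and 0.889 ± 0.393 in iBET Ova (SD, n = 3). Zbtb46 had at most 17 counts in a library and was kept for testing only through iBET libraries, so the size of this fold is poorly fixed. In bulk RNA, fewer cells expressing a gene and less RNA per cell cannot be told apart.

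Il1a and Il1b lie on the minus strand of chromosome 2 (Il1a 129299610 to 129309972, Il1b 129364570 to 129371139, GRCm38/mm10, GENCODE vM21), with no other protein-coding gene between them. Il1rn is on the plus strand of the same chromosome, at 24336853 to 24351494. Il1r2 (40074079 to 40125231), Il1r1 (40225080 to 40317257) and Il1rl2 (40324610 to 40367562) follow each other on the plus strand of chromosome 1 within 293.5 kb, with no other protein-coding gene wholly inside that span. Il18 is on chromosome 9 (50554827 to 50581840, plus strand), Il18bp on chromosome 7 (102014885 to 102018690, minus strand) and Il1rap on chromosome 16 (26581704 to 26730117, plus strand). Exons of Il1a, Il1b, Il18bp and Il1rap overlap exons of a gene on the opposite strand, and whether counting used strand was not given in the sources used here. For Il1a, Il1b and Il1rap these partners (Gm14023, Il1bos and Gm20319) had at most 3, 2 and 11 counts in a library. The partner of Il18bp, Numa1, had a mean of 69.8 to 200.3 CPM and fell with iBET in Ova (log2 fold change -0.88, SE 0.21, edgeR adjusted p = 0.00817) and in IC (-0.88, SE 0.21, edgeR adjusted p = 0.00724). With IC Numa1 had log2 fold changes of -0.63 in DMSO and -0.63 in iBET, neither called (adjusted p = 0.224 and 0.444). The values of Il18bp are therefore uncertain in every comparison.

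RefSeq promoter windows (250 bases before to 50 after a start, GRCm38.p6) were matched for all 9 members. The bases before the start are shown for the members on which the responses to IC and to iBET turn, Il1b and Il1rn for IC and Il1rap for iBET. They are written 5′ to 3′ on the gene's strand, cut where an annotated exon begins, and capitals mark 3 motifs on either strand, NF-kB-like (GGG and CC with any 5 bases between), AP-1-like (TGANTCA) and the TATA box (TATAAA).
Il1b, chr2:129371140-129371389, minus strand: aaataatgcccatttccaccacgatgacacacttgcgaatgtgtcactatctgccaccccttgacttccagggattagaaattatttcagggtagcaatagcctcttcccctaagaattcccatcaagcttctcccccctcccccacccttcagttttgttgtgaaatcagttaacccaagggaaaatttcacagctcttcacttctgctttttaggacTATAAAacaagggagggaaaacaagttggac
Il1rn, first of 3 starts, chr2:24336610-24336852, plus strand: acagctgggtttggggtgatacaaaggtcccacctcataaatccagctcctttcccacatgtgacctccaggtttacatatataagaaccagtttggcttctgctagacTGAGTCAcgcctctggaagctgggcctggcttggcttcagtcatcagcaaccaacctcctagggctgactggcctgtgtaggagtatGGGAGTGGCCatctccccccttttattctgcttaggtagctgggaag
Il1rap, chr16:26581455-26581703, plus strand: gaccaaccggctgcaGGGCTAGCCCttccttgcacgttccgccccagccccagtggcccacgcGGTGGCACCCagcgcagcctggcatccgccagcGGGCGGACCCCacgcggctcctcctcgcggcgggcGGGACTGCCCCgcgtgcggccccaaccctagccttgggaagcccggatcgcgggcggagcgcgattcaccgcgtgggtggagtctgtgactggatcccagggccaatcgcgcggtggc

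Il1b had TATAAA at -31 to -26 from the start and Il1a at -32 to -27, letters that 13.6% of the 32851 windows in the table held somewhere. Il1rn had an AP-1-like match at -141 to -135 and NF-kB-like matches at -54 to -45 and, across the start, -4 to 6, and the window of the last of its 3 starts had another NF-kB-like match at -51 to -42, which is also in the window of the start between them. The window of the second Il1r1 start had an NF-kB-like match at -232 to -223. AP-1-like letters stood in 7.81% of all windows and NF-kB-like letters in 50.8%, so the latter are common. Il1b had no NF-kB-like, AP-1-like, C/EBP-like (TTNNGCAA) or PU.1-like (GAGGAA) letters in this window. The Il1rap window was 72.0% G and C with 33 CpG dinucleotides, above 93.1% of windows in G and C content, while Il1b had 45.7% and 3 and the first Il1rn window 54.0% and 1. The median over all windows was 52.7% and 7. Within the Il1rap window the NF-kB-like letters occurred in overlapping matches on both strands, and the interferon-response-like letters (GAAA, 2 bases of any kind, GAAA) occurred after the start (21 to 30), which 3.44% of windows held. C/EBP-like letters were in windows of Il18bp, Il1r1 and Il1rl2 (10.8% of all windows) and PU.1-like letters in that of Il1a (28.3%). These matches describe letters only.

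Il1rn was the most abundant member in every group. Per kilobase of merged exon it stood at 26.6 ± 1.88 CPM (SD, n = 3) in DMSO Ova, 24.1 ± 1.65 in iBET Ova, 48.1 ± 8.02 in DMSO IC and 23.5 ± 2.36 in iBET IC. Il18, Il1rap and Il18bp followed, between 2.18 and 4.70 CPM per kb as group means, and neighbours among these 3 overlapped in range, except Il18 and Il1rap in DMSO Ova. The group means of Il1b, Il1r1, Il1r2 and Il1rl2 were all under 1 CPM per kb, and in DMSO IC the highest library reached 1.01 for Il1b and 1.10 for Il1r2. Il1b had rank 7 of 9 in both Ova groups and rank 5 in both IC groups, and in DMSO IC its range overlapped that of Il1r2, the next below it.

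**Figure D1:**
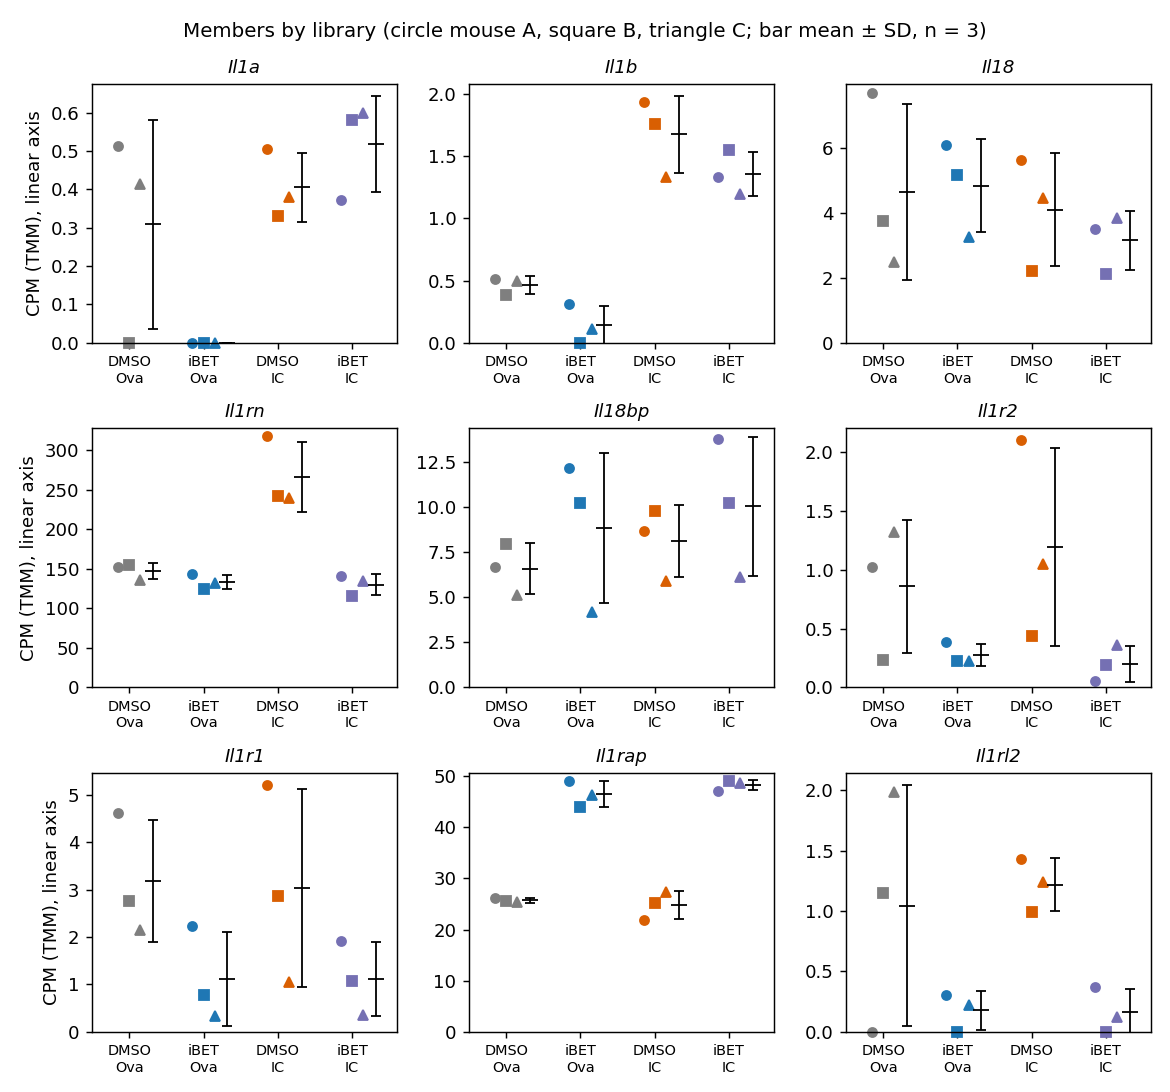
CPM of each member (linear axis from 0, 1 panel per gene) in the 12 libraries, by group on the x axis. Symbols are mice and bars mean ± SD of 3 libraries, drawn from 0 where the SD passes below it. Il1rn stands apart in DMSO IC (240 to 318 CPM) and Il1rap in both iBET groups (44.0 to 49.0 CPM).

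DMSO IC was set against DMSO Ova to ask which members respond to engagement of Fc gamma receptors when BET proteins are not inhibited. Of the 8 members tested 1 was called, Il1rn, at an adjusted p under 0.05 (edgeR quasi-likelihood, Benjamini-Hochberg over all genes), where 1.22% of all genes were called, 0.732% as higher and 0.488% as lower. With mouse as a block the same comparison called 315 genes in place of 140, and again 1 member. The median log2 fold change of the tested members was 0.22, and that of all genes -0.01.

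Il1rn encodes the IL-1 receptor antagonist. It had 152, 154 and 135 CPM in the DMSO Ova libraries of mice A, B and C and 318, 242 and 239.6 CPM in the DMSO IC libraries. The IC libraries were all above the Ova libraries, and the level was higher in 3 of 3 mice. Il1rn rose 1.81-fold (log2 fold change 0.86, SE 0.13, edgeR adjusted p = 0.00576). The call held without each single library and was lost without mouse B (adjusted p = 0.371), without mouse C (0.153) and when the compared groups were fitted alone (0.117).

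Il1b, which encodes the agonist IL-1β, was low. It had 1, 5 and 6 counts in DMSO Ova and 23, 16 and 14 in DMSO IC, or 0.464 ± 0.0709 and 1.68 ± 0.309 CPM (SD, n = 3). The groups did not overlap, and 3 of 3 mice were higher with IC. For mouse A this rests on 1 count in a library that is mostly Rn45s, where it is worth 0.513 CPM. That count has an exact 95% Poisson interval of 0.0253 to 5.57 counts, so the place of this library and the SD are uncertain. Il1b, kept for testing only through its IC libraries, had a log2 fold change of 1.89 (SE 0.47, edgeR adjusted p = 0.0861). This did not pass the test, and it passed with 1 surrogate variable (adjusted p = 0.0499).

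Il1a, the other IL-1 agonist, had 1, 0 and 5 counts in DMSO Ova and 6, 3 and 4 in DMSO IC. With so few counts no difference was detectable. Il18 was at 2.49 to 7.70 CPM in DMSO Ova and 2.20 to 5.63 in DMSO IC, with a log2 fold change of 0.10 (SE 0.43). The other 5 tested members had log2 fold changes from -0.15 (Il1rl2) to 0.63 (Il1r2), with adjusted p from 0.839 to 0.986, and their groups overlapped.

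IC was next compared with Ova in the presence of iBET, which asked whether the same response appears when BET proteins are blocked. Again 1 of 8 members was called, Il1b, where 0.349% of all genes were called, 0.314% higher and 0.0349% lower. The fit blocked on mouse called 85 genes in place of 40, and 1 member.

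Il1b had 4, 0 and 1 counts in iBET Ova and 25, 16 and 10 in iBET IC, or 0.140 ± 0.156 and 1.36 ± 0.177 CPM. Every IC library was above every Ova library, and 3 of 3 mice were higher. Il1b rose with IC, with a log2 fold change of 3.01 (SE 0.54, edgeR adjusted p = 0.0346), having been kept for testing only through its IC libraries. The group with Ova holds 5 counts in all, so the size of this fold is poorly fixed. The call was lost without 1 library in 8 of 12 cases, these being DMSO Ova of mouse B (adjusted p = 0.0599) or C (0.0628), iBET Ova of B (0.1002) or C (0.153), DMSO IC of B (0.0665), and iBET IC of A (0.148), B (0.141) or C (0.0819). It was also lost without mouse B (1.00) or C (0.530), while the log2 fold change stayed between 2.44 and 4.38 across omissions.

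Il1rn had 143, 124 and 132 CPM in iBET Ova and 141, 115 and 134 in iBET IC. The 2 groups overlapped. Its log2 fold change was -0.04 (SE 0.13, edgeR adjusted p = 0.984), with 1 of 3 mice higher.

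Il1a was at 0 counts in all 3 iBET Ova libraries and at 7, 6 and 5 in iBET IC. The mean of 0.518 CPM in iBET IC was 5.33 times the level that 3 counts over the iBET Ova group would give (0.0970 CPM). That ratio leaves out the counting error of the 18 counts in iBET IC, so it fixes no smallest fold. Without a filter on low counts the adjusted p of Il1a was 0.255 here. The remaining 6 tested members had adjusted p from 0.808 to 1.00, and Il18 had the lowest, with a log2 fold change of -0.63 (SE 0.40).

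The interaction subtracts the log2 IC response under DMSO from the one under iBET. None of the 8 members and none of the 11468 genes was called by edgeR (percent called 0, smallest adjusted p 0.388). Unadjusted, 292 genes had a p under 0.05 (2.55%), and 1 of them was a member, Il1rn. DESeq2 called 4 genes.

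Il1rn had an interaction of -0.89 on the log2 scale (SE 0.18, unadjusted p = 0.000297, edgeR adjusted p = 0.700). Per mouse it was -1.08, -0.76 and -0.81, lower in 3 of 3. DESeq2 gave -0.89 with an adjusted p of 0.0385, and 0.000847 with mouse as a block, whereas the block in edgeR gave 0.221. Whether the IC response of Il1rn differs between the arms therefore depends on the tool. For Il1b the interaction was 1.12 (SE 0.77, adjusted p = 1.00), so the larger fold of Il1b in iBET was not shown to differ from that in DMSO.

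**Figure D2:**
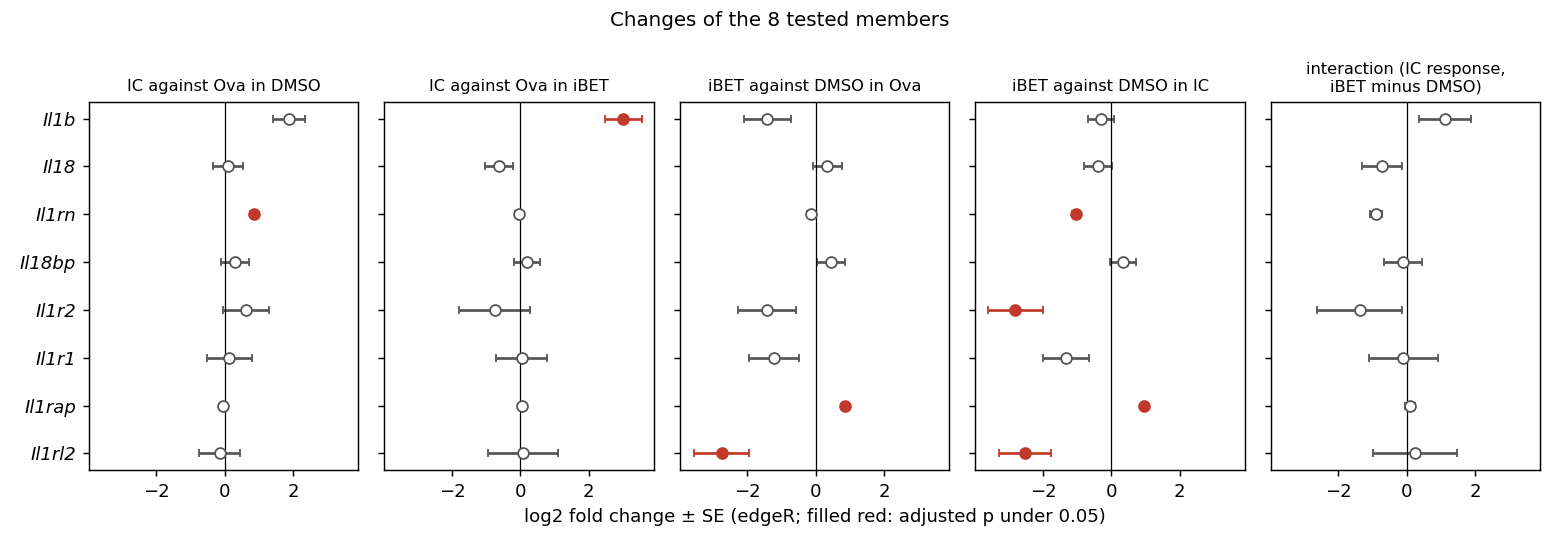
Log2 fold change ± SE from edgeR (x axis) for the 8 tested members (y axis) in the 5 contrasts, with filled red points at an adjusted p under 0.05. Il1rn is called at 0.86 with IC in DMSO and sits at -0.04 in iBET, and Il1rap is called at 0.86 and 0.96 with iBET.

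iBET was compared with DMSO to ask how BET inhibition itself changes the members. In Ova 2 of 8 tested members were called, Il1rap higher and Il1rl2 lower, where 31.3% of all genes were called, 17.1% higher and 14.2% lower. In IC 4 were called, Il1rap higher and Il1rn, Il1r2 and Il1rl2 lower, where 34.8% of all genes were called, 19.0% higher and 15.8% lower. With mouse as a block Il1r1 was also called lower in both stimulations. The blocked fit called 4385 genes in Ova in place of 3593, and 4829 in IC in place of 3987. With about 1 gene in 3 called over the whole table, counts of 2 and 4 among 8 members were not read as particular to the family. The median log2 fold change of the tested members was -0.68 in Ova and -0.71 in IC, and that of all genes 0.02 and -0.00373. Since Il1r2 and Il1rl2 were kept through DMSO libraries only, nothing is read from these counts and medians.

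Among the inhibitors, Il1rn was 147 ± 10.4 CPM in DMSO Ova and 133 ± 9.14 in iBET Ova, with overlapping libraries and a log2 fold change of -0.14 (SE 0.13, edgeR adjusted p = 0.428). In IC it was 266 ± 44.4 CPM in DMSO and 129.9 ± 13.1 in iBET. No iBET IC library reached a DMSO IC library, and 3 of 3 mice were lower. Il1rn fell in IC with a log2 fold change of -1.04 (SE 0.13, edgeR adjusted p = 7.13e-05), and the call held under all 26 alternatives tried. The levels of iBET Ova, iBET IC and DMSO Ova overlapped in part, and DMSO IC stood above all of them.

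Il1r2, the decoy receptor, had 25, 4 and 11 counts in DMSO IC and 1, 2 and 3 in iBET IC. The highest iBET library, at 0.359 CPM, was below the lowest DMSO library, at 0.440 CPM. It fell with a log2 fold change of -2.81 (SE 0.81, edgeR adjusted p = 0.0180), having been kept for testing only through DMSO libraries, and the call was lost without DMSO IC of mouse A (0.0898), without iBET IC of mouse A (0.0944) and without mouse A (0.283). In Ova it had 2, 3 and 16 counts in DMSO and 5, 2 and 2 in iBET, with a log2 fold change of -1.42 (SE 0.84, edgeR adjusted p = 0.225). Those groups overlapped.

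Il18bp was at 5.14 to 7.97 CPM in DMSO Ova, 4.17 to 12.2 in iBET Ova, 5.91 to 9.79 in DMSO IC and 6.11 to 13.8 in iBET IC. No comparison of Il18bp was called, and all groups overlapped. In each group mouse C had the lowest value.

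Il1rap, the accessory chain shared by the receptors for IL-1, IL-33 and IL-36, had 26.2, 25.6 and 25.3 CPM in DMSO Ova, and 49.0, 44.0 and 46.3 in iBET Ova. In IC it had 21.9, 25.2 and 27.4 CPM in DMSO and 47.1, 49.0 and 48.7 in iBET. The 6 iBET libraries were all above the 6 DMSO libraries, and 3 of 3 mice were higher in both stimulations. Il1rap rose 1.81-fold in Ova (log2 fold change 0.86, SE 0.10, edgeR adjusted p = 7.61e-05). In IC it rose 1.94-fold (0.96, SE 0.10, edgeR adjusted p = 2.37e-05). Both calls held under all 26 alternatives. IC changed it in neither arm by a called amount (log2 fold change -0.05 and 0.05, SE 0.11 and 0.10).

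Il1rl2, the IL-36 receptor chain, had 0, 15 and 24 counts in DMSO Ova and 4, 0 and 2 in iBET Ova. The 0 in DMSO Ova belongs to the shallow library of mouse A, where 3 counts would be 1.54 CPM, against 1.15 and 1.99 CPM in mice B and C, and the Ova groups overlapped. In IC it had 17, 9 and 13 counts in DMSO and 7, 0 and 1 in iBET, and those groups did not overlap. Il1rl2 fell in Ova, where 2 of 3 mice were lower (log2 fold change -2.76, SE 0.81, edgeR adjusted p = 0.0217). It also fell in IC, where 3 of 3 were lower (-2.52, SE 0.76, edgeR adjusted p = 0.0220). Il1rl2 too was kept for testing only through DMSO libraries. With the deposited signal in limma neither call passed (0.307 in Ova, 0.0713 in IC). In Ova the call was also lost without DMSO Ova of mouse C (0.119), iBET Ova of mouse B (0.0681), mouse B (0.123) or mouse C (0.223). In IC it was lost without DMSO IC of mouse A (0.0523), iBET IC of mouse B (0.0642) or C (0.0599), mouse B (0.110) or mouse C (0.122).

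Il1r1, the signalling receptor for IL-1, differed between mice in every group. It had 9, 36 and 26 counts in DMSO Ova (4.62, 2.76 and 2.15 CPM) and 29, 7 and 3 in iBET Ova (2.24, 0.771 and 0.338 CPM). In DMSO IC it had 62, 26 and 11 counts (5.21, 2.86 and 1.05 CPM) and in iBET IC 36, 11 and 3 (1.92, 1.07 and 0.359 CPM). Mouse A was highest and mouse C lowest in all 4 groups, the groups overlapped, and 3 of 3 mice were lower with iBET in each stimulation. Without the mouse term the Ova cultures gave a log2 fold change of -1.22 (SE 0.73, edgeR adjusted p = 0.231), and the IC cultures one of -1.32 (SE 0.67, edgeR adjusted p = 0.150). With mouse as a block, Il1r1 was lower at -1.71 (SE 0.35, adjusted p = 0.00217) and -1.42 (SE 0.32, adjusted p = 0.00379), and both passed.

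The 6 stromal and endothelial markers, whose sum is nearly all Kdr, moved with iBET in the same direction as Il1r1. They summed to 20.5 to 21.4 CPM in DMSO Ova and 12.2 to 14.4 in iBET Ova, and to 24.1 to 27.6 in DMSO IC and 12.7 to 16.9 in iBET IC. Col1a1, Col3a1, Dcn, Pdgfrb and Cdh5 stayed at or under 1.43 CPM in every library, and the part of these markers in the Il1r1 values was not tested.

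**Figure D3:**
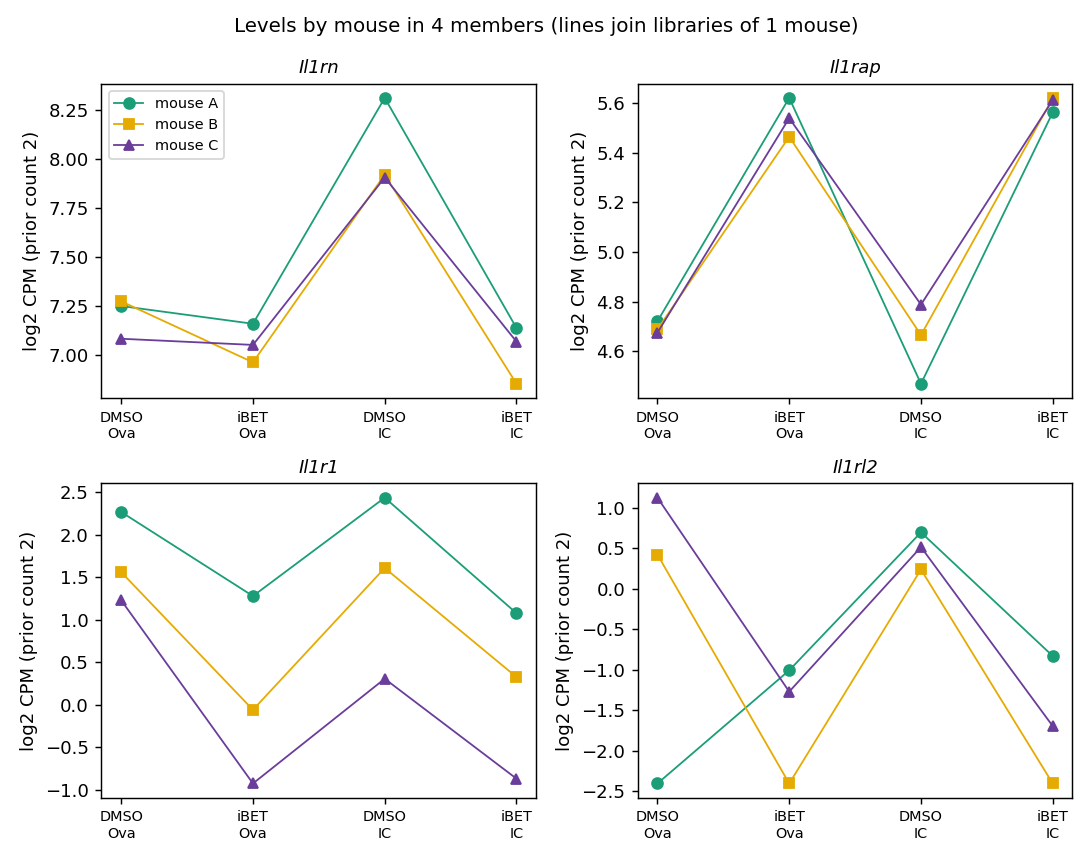
Log2 CPM (prior count 2, y axis) of 4 members in the 4 groups (x axis), with lines joining the libraries of 1 mouse. Il1r1 keeps the order A, B, C in all 4 groups, and the Il1rl2 point of mouse A in DMSO Ova is a count of 0 in the shallow library.

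Of the agonists, Il1b was at 0.464 ± 0.0709 CPM in DMSO Ova, where the mouse A value is 1 count, and 0.140 ± 0.156 in iBET Ova. Those groups of Il1b values did not overlap. Its log2 fold change was -1.42 (SE 0.68, edgeR adjusted p = 0.133), and it passed without iBET Ova of mouse A (0.0376), with limma on the deposited signal (0.0410) and with voom weights (0.00706). In IC it was 1.68 ± 0.309 in DMSO and 1.36 ± 0.177 in iBET, with overlapping libraries and a log2 fold change of -0.30 (SE 0.37, adjusted p = 0.566). Il18 had log2 fold changes of 0.34 (SE 0.43) in Ova and -0.39 (SE 0.41) in IC, neither called. Il1a had 6 counts over the DMSO Ova group and 0 over iBET Ova, and 13 and 18 over the IC groups.

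Genes outside the members were described from fixed lists. Of 16 other symbols of the IL-1 family, 12 were in the table and 2 were tested, both receptor chains. Il18rap, the accessory chain of the IL-18 receptor, had 8.90 ± 3.35 CPM in DMSO Ova and 1.72 ± 0.549 in iBET Ova, with a log2 fold change of -2.41 (SE 0.40, edgeR adjusted p = 0.000690). In IC its means were 8.03 and 2.31 CPM (log2 fold change -1.85, edgeR adjusted p = 0.00240). Il1rl1, the IL-33 receptor, had 7.64 ± 2.86 CPM in DMSO Ova and 3.10 ± 1.16 in iBET Ova (log2 fold change -1.37, SE 0.36, edgeR adjusted p = 0.0119). In IC its means were 7.39 and 3.70 CPM (log2 fold change -1.03, edgeR adjusted p = 0.0332), so both fell in both stimulations. Neither was called with IC. Il33, Il1f5, Il1f8, Il1f10, Il1rapl1 and Il1rapl2 had no count in any of the 12 libraries.

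The list of genes that process and release the cytokines had 23 tested genes. With iBET 15 were called in Ova (5 higher, 10 lower) and 14 in IC (3 higher, 11 lower), beside 31.3% and 34.8% of all genes, with median log2 fold changes of -0.37 and -0.50. Mefv, which encodes pyrin, fell most, by a log2 fold change of -3.87 in Ova (SE 0.72) and -2.96 in IC (SE 0.50). Its means were 2.29 CPM in DMSO Ova, 0.147 in iBET Ova, 3.93 in DMSO IC and 0.469 in iBET IC. Mefv was kept for testing only through DMSO libraries, so the size of these folds is poorly fixed. Nlrp3, the inflammasome sensor, went from 69.3 ± 10.6 to 16.5 ± 4.28 CPM in Ova (log2 fold change -2.08, SE 0.20, edgeR adjusted p = 1.27e-05), and Nlrp1b from 27.2 ± 2.18 to 8.53 ± 2.20 in IC (-1.66, SE 0.18, adjusted p = 3.43e-05). Nlrp3 was also called lower in IC (-1.64) and Nlrp1b in Ova (-1.55). Naip5, a sensor of bacterial flagellin, rose in Ova (0.89) and IC (0.92). Ninj1, needed for membrane rupture, also rose in both (0.67 and 0.54), as did Naip2 (0.56 and 0.64). Named after their values were seen, the pore-forming Gsdmd fell in both (-0.72 and -0.50), the ATP-gated channel P2rx7 fell in both (-0.67 and -0.76), the adaptor Pycard fell in IC (-1.23), and Casp1 fell in Ova (-0.37) and had -0.22 in IC (adjusted p = 0.0753). With IC none was called in DMSO by edgeR, where Casp4 and Nlrp3 were called by DESeq2 and by the mouse block, and Nlrp3 alone rose in iBET (1.27, SE 0.19, adjusted p = 0.0118).

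All 30 genes of receptor-proximal signalling were tested. With iBET 13 were called in Ova (10 higher, 3 lower) and 13 in IC (9 higher, 4 lower), not far from the 31.3% and 34.8% called over all genes, and with IC none was called by edgeR in either arm (DESeq2 called Irak2 in iBET). The ubiquitin ligase gene Peli1 rose in both (0.88 in Ova, 1.04 in IC). Peli3, of the same family, was called higher in Ova (2.62, SE 0.61), with means of 0.104 CPM in DMSO and 0.942 in iBET. Peli3 had 89 counts over all libraries and was kept for testing only through iBET libraries, so the size of its fold is poorly fixed. Mapk8, which encodes the kinase JNK1, rose in both (0.74 in Ova, 0.95 in IC). Tifa, a TRAF adaptor, fell in both (-0.95 and -0.90), as did Irak2 (-0.53 and -0.46), and Tab1 was called lower in IC (-0.65). The core adaptor Myd88, named after its values were seen, had 0.25 and 0.21, neither called.

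Of 15 transcription factor genes, all tested, 11 were called with iBET in Ova (8 higher, 3 lower) and 10 in IC (7 higher, 3 lower), beside 31.3% and 34.8% of all genes. Spi1, which encodes PU.1, had 241 ± 10.7 CPM in DMSO IC and 71.7 ± 7.80 in iBET IC, with log2 fold changes of -1.75 in IC (SE 0.12, edgeR adjusted p = 7.61e-07) and -1.54 in Ova. Fos fell (-0.96 and -1.55), and Irf4 (1.66 and 1.59) and Stat3 (0.81 and 0.79) rose. With IC, Cebpb (0.71) and Relb (0.83) rose in DMSO, and 0 of the 15 were called when the DMSO Ova library from mouse A was left out. In iBET, Nfkb1 (0.76) and Relb (0.89) rose with IC.

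Of 10 tested cytokines and receptors that induce Il1b or Il1rn, Tnf rose with IC in DMSO (46.3 ± 7.82 to 99.8 ± 23.0 CPM, log2 fold change 1.09, SE 0.16, edgeR adjusted p = 0.00576) and in iBET (70.6 ± 0.599 to 165.6 ± 10.7 CPM, 1.23, SE 0.16, adjusted p = 0.00397). Tnf and Il4ra were the 2 genes called with iBET, both higher in both stimulations (Tnf 0.59 and 0.73, Il4ra 0.69 and 0.79), a smaller share than the 31.3% and 34.8% of all genes. With mouse as a block, 5 were called in Ova, as Ifngr1, Il10 and Il10ra were also lower, where 4385 of 11468 genes were called. With the library of mouse A left out of DMSO Ova, 3 were called in Ova, Il4ra higher and Il10 and Tnfrsf1a lower, where 3362 of 11468 genes were called. Tnf was then no longer called in Ova. The interaction of Tnf was 0.14 (SE 0.22, edgeR adjusted p = 1.00). The study named Tnf, from these libraries, among the genes whose change with IC was dampened by iBET. The study removed batch effects with sva, which the main fit here did not. By qPCR of whole kidney it also reported a smaller rise of Il1b and Tnf after IC with iBET. In the values here Tnf was higher with iBET in both stimulations, in Ova only with the DMSO Ova library of mouse A kept. Its change with IC was not smaller in iBET (1.23) than in DMSO (1.09).

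**Figure D4:**
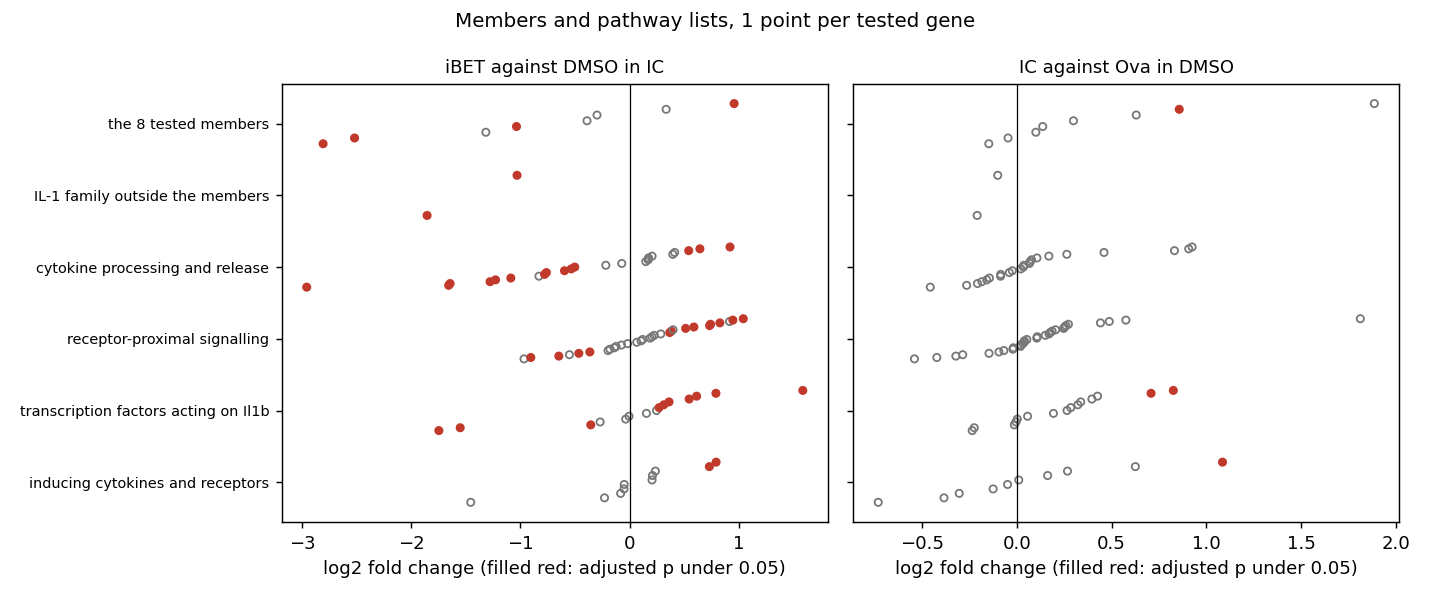
Log2 fold change from edgeR (x axis) of every tested gene, 1 point per gene, for the members and the 5 pathway lists (rows), with iBET against DMSO in IC on the left and IC against Ova in DMSO on the right. Filled red points have an adjusted p under 0.05, which 14 of 23 processing genes reach on the left and none on the right.

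Genes whose pattern was most like that of a member were ranked by Pearson correlation of log2 CPM over the 12 libraries, which share groups and mice, among genes with a mean count of at least 50. For Il1rap these were Pag1 (r = 0.994), Glce (0.993) and Pim2 (0.991). For Il1rn they were Gnl3 (0.932), Ifi203 (0.926) and Nop2 (0.924), and for Il1b Rassf4 (0.947), Nfkb1 (0.944) and Psme3 (0.943). Il1r1 was most like Sbf2 (0.958), Slfn1 (0.954) and Colec12 (0.936), and Il18bp most like Folr2 (0.942), Gpnmb (0.937) and Ms4a6d (0.930). For Il1r2 they were Setdb2 (0.918), Snrnp200 (0.914) and Zfp951 (0.910), for Il1rl2 Cd200r4 (0.929), Zfp160 (0.925) and Lrrc49 (0.924), and for Il18 Sra1 (0.862), Ndufa1 (0.849) and Chmp1b (0.844). By Spearman correlation none of the 3 genes stayed in the first 3 for Il1rap, Il1rn, Il1r2, Il1rl2 and Il18. Among the members themselves, Il1rap had r = -0.75 with Il1r2, -0.71 with Il1rn, -0.70 with Il1r1 and -0.68 with Il1rl2.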

How the data were processed

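RNA-seq of 12 BMDM libraries was analysed. The authors deposited whole-number counts per gene symbol, made with Trim Galore, HISAT2 on mm10 and featureCounts, and a normalized signal. That deposited signal equalled the counts divided by DESeq2 size factors (largest relative gap 4.89e-15) and was used in 1 alternative. Versions, annotation, strand and multimapping were not given in the sources used here.

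Genes were kept by filterByExpr (minimum count 10), and edgeR 4.0.16 (R 4.3.3) was fitted to all 12 libraries with TMM factors, a robust quasi-likelihood and 1 term per group. P-values are two-sided, adjusted by Benjamini-Hochberg over 11468 genes, and SE is the absolute log2 fold change over the square root of F. Log2 CPM uses a prior count of 2. Intervals and floors (3 counts) cover counting error only. Groups hold 3 libraries from different mice.

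The labels give each library's mouse, so the libraries are paired. Over 18 same-mouse pairs, correlations of deviations from group means ran from -0.13 to 0.71, with 14 over 0.1. The members, gene lists and tests were chosen with earlier results of these data known. Genes were named by rule: the members, up to 2 largest rises and 2 largest falls called per list and contrast, the 3 genes most correlated with a member, and genes in counts of 5 or fewer. Gsdmd, P2rx7, Pycard, Casp1 and Myd88 were named after their values were seen. Alternatives were DESeq2 1.42.0, DESeq2 size factors, no filter or 10 counts in every library, the mouse block, 1 surrogate variable (sva 3.50.0), compared groups alone, limma 3.58.1 on the deposited signal (pseudocount 1), no Rn45s, voom with sample weights, and omission of each library and mouse. The model was tested on simulated data with 200 changed genes: in the simulated comparison of IC with Ova in DMSO (11468 genes), 58% of 2-fold and 92% of 4-fold changes were called. Of 159 calls there, 9 fell on unchanged genes. The changed genes were drawn from all levels above a low cut, with no mouse effect. These rates therefore do not describe members with few counts. Alignment of member proteins was not run, and values of some marker genes are not reported here.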

Additional observations from a re-analysis of the deposited data

Results flagged for a closer look

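The IC response of Il1rn differed between the DMSO and iBET arms by the test of the difference in DESeq2 and not in edgeR. The difference, iBET minus DMSO, was -0.89 on the log2 scale (edgeR adjusted p = 0.700, DESeq2 adjusted p = 0.0385), and it was negative in 3 of 3 mice. Over the alternatives it ran from -0.96 to -0.74, with adjusted p from 0.000847 to 1.00.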

How the results depend on the processing

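Of 40 log2 fold changes (8 members in 5 contrasts), 15 changed sign under some alternative, none of them called. Of the 1010 values computed under alternatives, 913 kept direction and side of the threshold, 28 lost the call, 11 gained it and 58 changed sign. The cause was not tested unless given.

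The number of members called with IC in DMSO was 1, 2 with 1 surrogate variable, 0 with the compared groups fitted alone, and 0 to 1 without a replicate. Of all 11468 genes these settings called 140, 387, 5 and 0 to 158. With IC in iBET the number of members was 1, 0 with at least 10 counts in every library, 0 with the compared groups alone, and 0 to 1 without a replicate. The genes called were 40 of 11468, 33 of 9218, 104 of 11468 and 0 to 308 of 11468. With iBET in Ova the number of members was 2, 1 under the strict filter, and 1 to 3 without a replicate. The genes called were 3593 of 11468, 2991 of 9218 and 1307 to 3882 of 11468. With iBET in IC the number of members was 4, 2 under the strict filter, and 2 to 4 without a replicate. The genes called were 3987 of 11468, 3368 of 9218 and 1768 to 4451 of 11468. With mouse as a block in edgeR, Il1r1 was called in addition with iBET in both Ova (adjusted p = 0.00217) and IC (0.00379). The strict filter tests 4 members only. The interaction called 0 members, and 1 with DESeq2 with or without the replicate block, where 7 and 4 genes were called.

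With mouse as a replicate block, Il1r1 with IC in DMSO went to -0.28 (edgeR) and -0.30 (DESeq2), Il18 there to -0.055 (DESeq2), the interaction of Il18bp to 0.00376 and 0.00487, and that of Il1r1 to 0.29 and 0.33. With the deposited signal in limma, IC in DMSO gave -0.12 for Il18, -0.25 for Il1r1 and 1.01 for Il1rl2, IC in iBET gave -0.11 for Il1rl2, and the interactions of Il1r1 and Il1rl2 were 0.35 and -1.13. With voom weights, IC in DMSO gave -0.34 for Il1r1 and 0.011 for Il1rap, and the interaction of Il1r1 was 0.58. The block changed no member's call in edgeR other than those of Il1r1.

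Without 1 library or mouse, IC in DMSO ranged from -0.29 to 0.39 for Il18, -0.52 to 0.55 for Il1r1, -0.063 to 1.86 for Il1r2, -0.13 to 0.053 for Il1rap and -0.47 to 0.42 for Il1rl2. IC in iBET ranged from -0.14 to 0.50 for Il18bp, -0.68 to 1.12 for Il1r1, -1.48 to 0.28 for Il1r2, -1.62 to 0.81 for Il1rl2 and -0.10 to 0.043 for Il1rn. iBET in Ova ranged from -0.016 to 0.59 for Il18. The interaction ranged from -0.44 to 0.20 for Il18bp, -0.82 to 0.99 for Il1r1, -3.35 to 0.28 for Il1r2 and -1.47 to 0.96 for Il1rl2.

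Genes called in all were 140 with IC in DMSO and 268 with DESeq2, and 40 and 105 with IC in iBET. Depth limits Il1a, Il1b, Il1r2 and Il1rl2, which had 25 counts or fewer in every library. Without TMM scaling, Il1rn per kb was 23.6 CPM in DMSO Ova and 26.8 in iBET Ova, the reverse of the TMM order, in which 1 library is mostly Rn45s.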

Other observations

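Il1f9, which encodes the IL-36 receptor ligand IL-36γ, was not tested for its low counts. It had 4, 5 and 3 counts in the DMSO IC libraries of mice A, B and C, 2, 0 and 0 in iBET IC, 1, 0 and 0 in DMSO Ova and none in iBET Ova. Sigirr, an inhibitory receptor of the family, had 20 to 27 counts over each group, and Il18r1, the ligand-binding chain of the IL-18 receptor, had 6 counts over the 12 libraries.

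The ratio of Il1rn to Il1b counts was 164, 138 and 180 in the DMSO IC libraries of mice A, B and C and 105, 74.4 and 112 in iBET IC, or 160.5 ± 21.3 and 97.2 ± 20.0 (SD, n = 3). All 3 iBET values were below all 3 DMSO values. An exact permutation test (two-sided) that did not keep the libraries paired by mouse gave p = 0.1. That is the smallest p this unpaired test can give with 3 libraries per group, so it cannot decide whether the ratio differs. The ratio rests on 10 to 25 counts of Il1b in a library, and 10 counts have an exact 95% Poisson interval of 4.80 to 18.4. In the Ova groups Il1b had 0 to 6 counts and no ratio is compared.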
